A study of Mus musculus with 6 samples.

Results

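The CDK inhibitor genes are the 7 mouse genes Cdkn1a, Cdkn1b, Cdkn1c, Cdkn2a, Cdkn2b, Cdkn2c and Cdkn2d, taken by gene symbol from the 18288 genes of the deposited table, and all 7 had a row in it. They were followed in 6 RNA-seq libraries of CD8+ T cells, 3 labelled Nae1T-KO and 3 labelled Nae1WT, all activated in vitro and profiled at day 2. Nae1 encodes a subunit of the enzyme that activates NEDD8, a ubiquitin-like protein. The label T-KO names a Nae1 knockout. The driver of the deletion, its exact lesion, the mouse strain, the age of the mice and the activating stimulus were not given in the sources used here. The labels call the libraries biological replicates but do not say that each came from a separate mouse, so a p-value here covers the spread among these libraries. Throughout, a value after ± is the SD over the 3 libraries of a group (n = 3).

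Cyclin-dependent kinase (CDK) inhibitors are the brakes of the cell cycle. The CIP/KIP proteins p21 (Cdkn1a), p27 (Cdkn1b) and p57 (Cdkn1c) bind whole cyclin-CDK complexes, while the INK4 proteins p16 (Cdkn2a), p15 (Cdkn2b), p18 (Cdkn2c) and p19 (Cdkn2d) bind CDK4 and CDK6 and keep D-type cyclins off them. In T cells p27 is abundant at rest and its protein is removed after activation. The p21 and p27 proteins are marked for degradation by cullin-RING ubiquitin ligases, which need NEDD8 on the cullin to work, so transcript levels alone do not give the protein levels. The comparison asks how the transcripts of these inhibitors differ between activated cells of the 2 genotypes.

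Of the 7 genes, 6 had a promoter entry in RefSeq (GRCm38.p6, the build also called mm10), with 9 entries among them. The promoters of the members with the most reads are shown, because these carry the comparison: Cdkn1a at each of its 2 annotated starts, Cdkn2c at the upstream one of its 2 starts, Cdkn2d and Cdkn1b, whose transcript differed least. Each is the 250 bases before the start, 5' to 3' on the gene's strand. Capitals mark GC boxes (GGGCGG on either strand), E2F sites (TTTCCCGC, TTTCGCGC, TTTGCCGC or TTTGGCGC on either strand) and a p53 site of 20 bases with at most 1 mismatch.
Cdkn1a, upstream start (chr17:29090729-29090978, plus strand): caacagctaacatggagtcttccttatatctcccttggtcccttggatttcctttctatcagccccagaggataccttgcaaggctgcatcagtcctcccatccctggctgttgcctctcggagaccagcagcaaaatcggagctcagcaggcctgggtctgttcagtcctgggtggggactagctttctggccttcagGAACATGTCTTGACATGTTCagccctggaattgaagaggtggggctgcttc
Cdkn1a, downstream start (chr17:29093519-29093768, plus strand): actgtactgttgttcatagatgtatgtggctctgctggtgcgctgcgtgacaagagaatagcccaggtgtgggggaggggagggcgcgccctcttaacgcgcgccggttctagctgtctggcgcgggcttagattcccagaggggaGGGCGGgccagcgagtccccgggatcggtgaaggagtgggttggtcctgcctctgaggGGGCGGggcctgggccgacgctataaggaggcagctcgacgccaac
Cdkn2c, upstream start (chr4:109666757-109667006, minus strand): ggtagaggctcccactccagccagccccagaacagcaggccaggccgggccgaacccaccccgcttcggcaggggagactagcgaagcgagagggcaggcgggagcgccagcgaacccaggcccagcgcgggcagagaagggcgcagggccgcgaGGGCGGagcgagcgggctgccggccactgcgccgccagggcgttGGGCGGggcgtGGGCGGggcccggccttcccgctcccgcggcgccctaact
Cdkn2d (chr9:21291210-21291459, minus strand): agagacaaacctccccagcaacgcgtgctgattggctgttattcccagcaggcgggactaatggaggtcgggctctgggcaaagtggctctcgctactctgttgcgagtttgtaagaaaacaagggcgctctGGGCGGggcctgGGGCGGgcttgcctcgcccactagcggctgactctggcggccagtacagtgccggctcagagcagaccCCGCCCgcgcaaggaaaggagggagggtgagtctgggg
Cdkn1b (chr6:134920151-134920400, plus strand): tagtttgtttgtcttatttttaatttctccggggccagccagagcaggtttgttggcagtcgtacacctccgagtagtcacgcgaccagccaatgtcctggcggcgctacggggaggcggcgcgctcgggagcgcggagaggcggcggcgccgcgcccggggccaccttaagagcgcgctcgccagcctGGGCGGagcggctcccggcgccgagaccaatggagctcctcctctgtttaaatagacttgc

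The p53 site before the upstream Cdkn1a start lies at chr17:29090928-29090947, 2841 bases before the downstream start. A p53 site with at most 1 mismatch was in 19 of 32851 RefSeq promoter windows of this length (0.0578%), and in 1 of the 9 windows of the members. The allowance of 1 mismatch was set after this sequence had been seen, and 3 windows (0.00913%), none of them of a member, held the site without a mismatch. GC boxes were found 2 times before the downstream Cdkn1a start, 3 times each before the upstream Cdkn2c start and Cdkn2d, 2 times before the upstream Cdkn2a start and 1 time before Cdkn1b, and 32.7% of all windows held at least 1. The other windows of the members, among them that of the downstream Cdkn2c start (chr4:109665373-109665622, not shown), held 0. Among the members an E2F site was found before 1 start, the upstream start of Cdkn2a, against 1.86% of all windows. A match describes letters only, and counts per gene cannot tell the starts apart.

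Nae1 had 338 to 390 normalized counts in Nae1T-KO against 1601 to 1882 in Nae1WT, a log2 fold change of -2.27 (limma, adjusted p = 5.03e-07). Uba3, which encodes the other subunit of the enzyme, had 0.02 (limma, adjusted p = 0.884). The libraries held 15628252 to 25444653 reads assigned to genes, recovered from the deposited normalized counts (reads divided by 1 size factor per library). CD8 T cell markers summed to 26059 to 27199 in Nae1T-KO against 28270 to 30398 in Nae1WT. The 7 myeloid and dendritic cell markers in the table summed to 122 to 182 in Nae1T-KO and 62.7 to 79.9 in Nae1WT, and the 6 CD4 T cell markers to 526 to 906 and 327 to 458. Il13 was the largest part of the CD4 sums in Nae1T-KO, at 669, 352 and 245 against 83.5, 160 and 203 in Nae1WT. Cd4 itself overlapped, at 20.1, 118 and 72.7 against 119, 20.9 and 42.6. Itgam and Itgax were at 0 in Nae1WT replicate 2 and Cd14 and Flt3 in Nae1WT replicate 1, and 3 of the 10 myeloid markers had no row. The B cell sums (201 to 538 and 226 to 349) and erythroid sums (194 to 2042 and 142 to 629) overlapped, with the highest values in Nae1T-KO replicate 2. Of the gamma-delta T and NK cell list, 3 of 5 genes had a row, with sums of 713 to 916 and 1308 to 1654, nearly all of it Eomes, which CD8 T cells also express. The part of these cells in the results below was not tested. In such bulk samples fewer cells of a type and less RNA per cell cannot be told apart. By Xist and Y-linked genes, Nae1T-KO replicates 1 and 2 and Nae1WT replicate 3 were female and the other 3 male.

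Among the 7 inhibitors Cdkn1a was higher in Nae1T-KO, and no other member passed the test. Genes were tested with limma on log2(normalized count + 1) if they reached a normalized count of 10 in at least 3 libraries, with Benjamini-Hochberg adjustment over the 13819 tested genes and a threshold of 0.05. Of the members 4 passed this filter, Cdkn1a, Cdkn1b, Cdkn2c and Cdkn2d, while Cdkn1c, Cdkn2a and Cdkn2b did not and are given by their counts. Of the 4, 1 was called, and 12.7% of all tested genes were called, 6.53% as higher and 6.18% as lower. With so few members this share says nothing about the family as a whole. The share of called genes that were higher was 51.4%, and 65.4% with scaling to total reads.

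**Figure D1:**
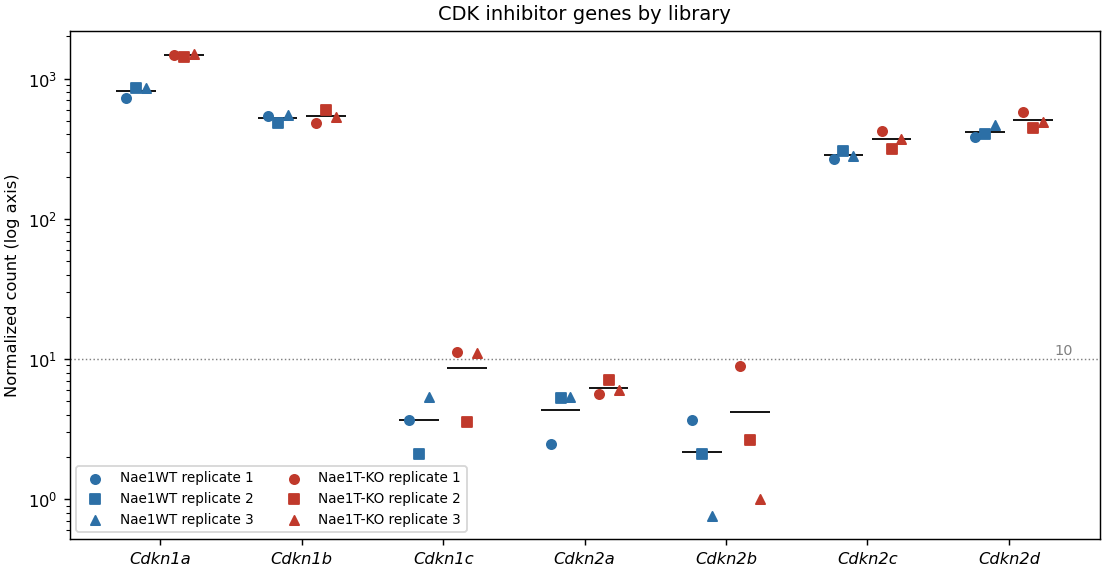
Normalized count of each CDK inhibitor gene in each library on a log axis, with Nae1WT in blue, Nae1T-KO in red, a bar at each group's mean and 1 marker shape per replicate number. Cdkn1a lies between 1421 and 1489 in Nae1T-KO and between 722 and 862 in Nae1WT, and Cdkn1c, Cdkn2a and Cdkn2b lie near or under the dotted line at 10.

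Cdkn1a (chr17:29090976-29100727, plus strand) encodes p21, an inhibitor of cyclin E-CDK2 and cyclin A-CDK2 complexes, and is a classic target of p53. Replicates 1, 2 and 3 of Nae1T-KO held normalized counts of 1472, 1421 and 1489, and those of Nae1WT held 722, 862 and 856, from 588 to 1612 reads per library. The groups did not overlap, and the 3 Nae1T-KO values lay close together, at 1461 ± 35.8 against 813 ± 79.2. Cdkn1a rose 1.80-fold, with a 95% interval of 1.58 to 2.05 (log2 fold change 0.85, SE 0.08, limma, adjusted p = 0.000425, and 1.41e-14 to 0.0142 over 19 alternatives). By p it ranked 35 among the 13819 genes and by size of increase 495. Between libraries of the same sex the log2 difference was 0.78 and 0.73 for the females and 1.04 and 0.79 for the males. An unnamed transcript of the opposite strand (AC167363.2, not in the table) shares 273 exon bases with Cdkn1a in GENCODE M21, and the use of strand in counting was not given in the sources used here.

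Cdkn1b (chr6:134920401-134925513, plus strand) encodes p27, the inhibitor associated with resting T cells. Normalized counts were 485, 601 and 534 (Nae1T-KO replicates 1 to 3) against 540, 482 and 550 (Nae1WT). The groups overlapped throughout, and the means were 540 ± 58.0 and 524 ± 36.7. Limma put the log2 fold change at 0.04, between -0.19 and 0.27 at 95% (limma, adjusted p = 0.837). In folds the interval runs from 0.88 to 1.20, so the data leave room for a modest change in either direction. The sign turned without Nae1T-KO replicate 2 (-0.0387) or Nae1WT replicate 2 (-0.0181).

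Cdkn1c (chr7:143458339-143461050, minus strand) encodes p57, which is best known from imprinted expression in embryonic tissue. Only 10, 4 and 11 reads (Nae1T-KO) and 3, 2 and 7 reads (Nae1WT) were assigned to it. The corresponding normalized counts were 11.2, 3.53 and 11.1 against 3.68, 2.09 and 5.33. The groups overlapped through Nae1T-KO replicate 2, and with so few reads no difference is claimed. With no filter on low values limma gave a log2 difference of 0.96 and adjusted p = 0.317. Gm44732, an antisense gene not in the table, shares 625 exon bases with Cdkn1c, and without strand their reads cannot be told apart.

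Cdkn2c (chr4:109660876-109667189, minus strand) encodes p18, the INK4 inhibitor that limits lymphocyte expansion in mice. Normalized counts were 423, 315 and 370 for Nae1T-KO against 269, 302 and 281 for Nae1WT. The groups did not overlap, with a gap between Nae1T-KO replicate 2 and Nae1WT replicate 2 that was narrow beside the spread within Nae1T-KO. The means were 369 ± 54.1 and 284 ± 16.8. The difference of 0.37 on the log2 scale (SE 0.12, 95% interval 0.10 to 0.64, limma, adjusted p = 0.0754) did not pass. It passed without Nae1T-KO replicate 2 (0.477, limma adjusted p = 0.0441) and with scaling to total reads (0.415, limma adjusted p = 0.0432), and adjusted p was 0.0432 to 0.206 over the alternatives. Within the same sex the log2 difference was 0.59 and 0.16 for the females and 0.46 and 0.29 for the males. Cdkn1a and Cdkn2c were the 2 tested members whose groups did not overlap, which held for 33.7% of all tested genes.

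Cdkn2d (chr9:21288410-21291407, minus strand) encodes p19, an INK4 inhibitor distinct from the p19ARF protein of the Cdkn2a locus. The Nae1T-KO libraries gave 573, 442 and 493 normalized counts, the Nae1WT libraries 383, 405 and 466. Nae1T-KO replicate 2 lay under Nae1WT replicate 3, so the groups overlapped. The means were 503 ± 65.7 and 418 ± 43.0, with 0.26 as the log2 fold change (SE 0.12, limma, adjusted p = 0.170; 0.105 to 0.414 over 19 alternatives). It did not pass in any of the 19 alternatives.

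Cdkn2a (chr4:89274471-89294653) and Cdkn2b (chr4:89306299-89311039), neighbours on the minus strand, were barely detected. Cdkn2a, whose 2 starts give p16 and p19ARF, had 5, 8 and 6 reads in Nae1T-KO against 2, 5 and 7 in Nae1WT. Cdkn2b, which encodes p15, had 8, 3 and 1 reads against 3, 2 and 1. For Cdkn2a the normalized counts were 5.59, 7.05 and 6.06 against 2.46, 5.23 and 5.33, without overlap (exact permutation test, two-sided p = 0.1, the smallest possible with 3 against 3). The gap from 5.33 to 5.59 is less than 1 read, which is worth 1.12 in Nae1T-KO replicate 1, and the reads themselves overlapped. Of all tested genes 33.7% had groups without overlap, so no difference is claimed. For Cdkn2b the normalized counts were 8.95, 2.64 and 1.01 against 3.68, 2.09 and 0.761, with overlap, and the log2 difference of 0.50 became -0.121 without Nae1T-KO replicate 1. With no filter limma gave adjusted p = 0.597 for Cdkn2a and 0.724 for Cdkn2b. Mtap, which encodes a methionine salvage enzyme and lies beside this locus, stood at 3124 ± 195 in Nae1T-KO against 2584 ± 73.6 in Nae1WT. It rose by 0.27 on the log2 scale (limma, adjusted p = 0.0283; 0.00949 to 0.257 over 19 alternatives), a call that ended without Nae1T-KO replicate 2 (0.0558) or any 1 of Nae1WT replicates 1, 2 and 3 (0.0756, 0.0685 and 0.105).

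**Figure D2:**
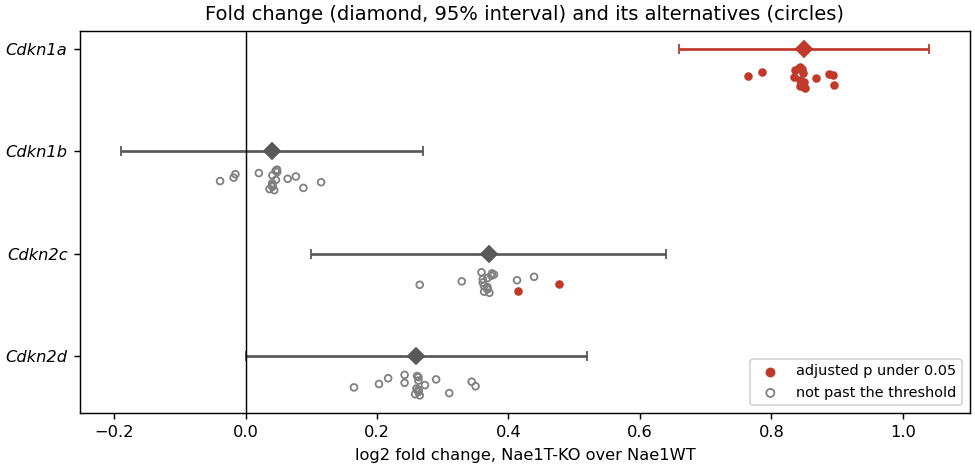
Log2 fold change of the 4 tested members, Nae1T-KO over Nae1WT, as a diamond with its 95% interval, and under each of 19 alternatives as circles, filled red where adjusted p was under 0.05. Cdkn1a stays between 0.765 and 0.895 and red throughout, Cdkn2c has 2 red circles, and Cdkn1b lies on either side of 0.

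The ratio of Cdkn1a to each other tested member was taken within each library, as a description, since Cdkn1a was chosen here for its rise. The log2 ratio of Cdkn1a to Cdkn1b was 1.44 ± 0.18 in Nae1T-KO and 0.63 ± 0.21 in Nae1WT. The ratio to Cdkn2c was 1.99 ± 0.19 against 1.51 ± 0.09, and that to Cdkn2d 1.55 ± 0.17 against 0.96 ± 0.11. The differences, 0.81, 0.48 and 0.59, restate the log2 fold change of Cdkn1a less that of the other member.

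Levels of different genes were compared as normalized counts per kb of exon, using the union of exons in GENCODE M21. In Nae1WT the order was Cdkn2d at 265 ± 27.3, Cdkn1a at 229 ± 22.3, Cdkn1b at 115 ± 8.07 and Cdkn2c at 106 ± 6.26. Cdkn1b and Cdkn2c overlapped, at 106 to 121 and 100 to 112. Cdkn2d was above Cdkn1a in each Nae1WT library, but by the length of the longest transcript Cdkn1a came first, at 391 against 294. The other 3 members lay at 3.70 (Cdkn2a), 1.82 (Cdkn1c) and 1.57 (Cdkn2b), levels too low to order.

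In Nae1T-KO the order was Cdkn1a at 411 ± 10.1, Cdkn2d at 319 ± 41.7, Cdkn2c at 137 ± 20.1 and Cdkn1b at 119 ± 12.8 normalized counts per kb. Cdkn1a was the highest of the 7 in all 3 Nae1T-KO libraries, and the ranges of Cdkn2c and Cdkn1b overlapped. Its share of the summed level was 39.1% to 42.5% in Nae1T-KO and 30.2% to 33.5% in Nae1WT. The share of Cdkn1b was 10.1% to 14.1% against 14.6% to 17.7%. The CIP/KIP genes summed to 526, 534 and 542 per kb in Nae1T-KO against 324, 350 and 364 in Nae1WT, and the INK4 genes to 532, 406 and 457 against 348, 375 and 406. These shares and sums depend on the length used. By the longest transcript Cdkn1a stood at 702 in Nae1T-KO and 391 in Nae1WT, and Cdkn2d at 353 and 294.

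**Figure D3:**
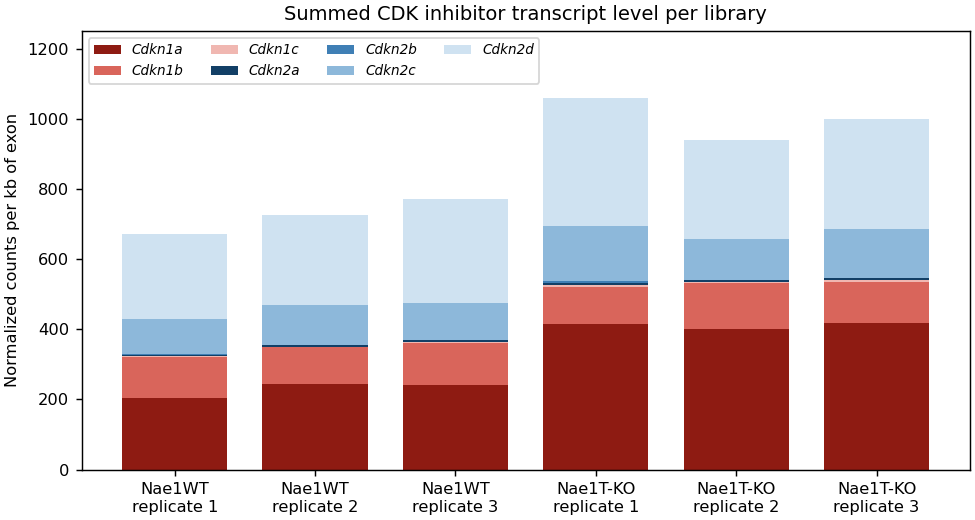
Normalized counts per kb of exon summed over the 7 CDK inhibitor genes, 1 bar per library, with CIP/KIP genes in reds and INK4 genes in blues. The bars reach 672 to 770 in Nae1WT and 940 to 1059 in Nae1T-KO, and the dark red segment of Cdkn1a differs most.

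By Pearson's r of log2 values over the 6 libraries and 9135 genes with a mean of at least 100 normalized counts, the genes most like Cdkn1a were Sf3b4 (0.998), which encodes a splicing factor subunit, Pdzk1ip1 (0.998) and Ubtd1 (0.996). Their mean normalized counts were 2711 against 2131 in Nae1WT for Sf3b4, 183 against 56.8 for Pdzk1ip1 and 254 against 76.2 for Ubtd1. Nearest to Cdkn1b were Atf7 (0.985), Ano6 (0.957) and Parp11 (0.954). Nearest to Cdkn2c were Hax1 (0.992), Slc16a13 (0.988) and Ssr1 (0.986), and nearest to Cdkn2d were Rnf6 (0.987), Glud1 (0.985) and Ppp5c (0.985). Among the members themselves r was 0.88 between Cdkn2c and Cdkn2d, 0.85 between Cdkn1a and Cdkn2c, 0.76 between Cdkn1a and Cdkn2d and 0.11 between Cdkn1a and Cdkn1b. It was -0.39 between Cdkn1b and Cdkn2c and -0.24 between Cdkn1b and Cdkn2d. These values share 6 libraries and their size factors and are a description only.

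Among the kinases and cyclins that these proteins bind, the calls were 2 D-type cyclin genes. Of 12 such genes, 11 were tested, 0 were higher, 2 were lower and 9 did not pass, with a median log2 fold change of 0.14 against -0.01 over all tested genes. The called shares of all tested genes were 6.53% higher and 6.18% lower. Ccnd2, which encodes cyclin D2, fell by 0.37 on the log2 scale, to 12597 ± 1224 from 16272 ± 711 in Nae1WT (limma, adjusted p = 0.0158; 0.000519 to 0.196 over 19 alternatives). Ccnd3, which encodes cyclin D3, fell by 0.32, to 1931 ± 102 from 2417 ± 96.1 (limma, adjusted p = 0.0137; 0.00167 to 0.219 over 19 alternatives). Without Nae1WT replicate 3 neither call held (limma, adjusted p = 0.0744 and 0.0694). For the INK4 targets the log2 fold change was -0.05 for Cdk4 (limma, adjusted p = 0.630) and 0.20 for Cdk6 (limma, adjusted p = 0.0979). For the partners of p21 and p27 it was 0.18 for Cdk2 (limma, adjusted p = 0.0953) and 0.18 for Ccne1, the cyclin E1 gene (limma, adjusted p = 0.125). Per kb, Cdk4 stood at 2015 in Nae1T-KO against 2090 in Nae1WT, well above any INK4 gene. Ccnd1, the cyclin D1 gene, had a mean of 6.73 normalized counts against 11.1 in Nae1WT and was not tested.

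Downstream of the kinases, 13 retinoblastoma and E2F genes gave 2 that were higher, 0 lower and 11 that did not pass, at a median of -0.06. All tested genes together gave 6.53% higher and 6.18% lower. E2f7, an atypical repressor E2F, rose by 0.65 on the log2 scale, to 246 ± 13.8 from 156 ± 6.90 in Nae1WT (limma, adjusted p = 0.00638; 0.0928 in a fit of 4 libraries blocked on the number in the library names, the library-number block). E2f3, an activator E2F, rose by 0.30 (limma, adjusted p = 0.0232; 0.0121 to 0.305 over 19 alternatives). The E2f3 call ended without any 1 of 5 libraries, all but Nae1T-KO replicate 3 (0.0533 to 0.0905). Rb1, the retinoblastoma gene, had -0.13 (limma, adjusted p = 0.520).

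Among 9 genes that set the phosphorylation of CDKs, 1 was higher, 2 were lower and 6 did not pass, with a median of -0.02. Beside this, 6.53% of all tested genes were higher and 6.18% lower. Cdc25b, a phosphatase that activates CDKs, rose by 0.51 on the log2 scale (limma, adjusted p = 0.0205; 0.000887 to 0.183 over 19 alternatives). Its call ended without any 1 of the 5 libraries other than Nae1T-KO replicate 3 (0.0511 to 0.0715). Ccnh and Mnat1 encode partners of CDK7 in the CDK-activating kinase. Ccnh fell by 0.41 (limma, adjusted p = 0.0119; 0.00121 to 0.117 over 19 alternatives, 0.0569 without Nae1WT replicate 2) and Mnat1 by 0.38 (limma, adjusted p = 0.0230). The Mnat1 call ended without Nae1T-KO replicate 2 (0.0757), Nae1WT replicate 2 (0.104) or Nae1WT replicate 3 (0.0721), with 0.0102 to 0.188 over the alternatives.

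Of the ligase components that degrade CIP/KIP proteins, 16 of 17 symbols had a row and were tested. The symbol without a row, Skp1a, is another name of Skp1, which had one. Of the 16 tested, 1 was higher, 3 were lower and 12 did not pass, with a median of -0.08. Across all tested genes the shares were 6.53% higher and 6.18% lower. Dtl encodes CDT2, the receptor that brings p21 to the CUL4 ligase, and stood at 1931 ± 84.8 against 2449 ± 50.7 in Nae1WT and fell by 0.34 (limma, adjusted p = 0.00841; 0.168 with the library-number block on 4 libraries). Pcna, the sliding clamp on which CDT2 recognises p21, fell by 0.34 (limma, adjusted p = 0.0424) and Lrr1, a CUL2 receptor for p21, by 0.39 (limma, adjusted p = 0.0421). Adjusted p spanned 0.00800 to 0.201 for Pcna and 0.0211 to 0.150 for Lrr1 across alternative settings. With sex as a covariate the Pcna call ended (limma, adjusted p = 0.0725), as it did with edgeR (adjusted p = 0.0509). Leaving out either Nae1T-KO replicate 1 or 2 or Nae1WT replicate 2 or 3 ended the calls of Pcna (0.0898, 0.122, 0.147 and 0.147) and Lrr1 (0.0607, 0.111, 0.150 and 0.149), and the Lrr1 call also ended without Nae1T-KO replicate 3 (0.0766). Skp2, the F-box receptor for p27, had 0.15 (limma, adjusted p = 0.376). Cdc20, an activator of the anaphase-promoting complex named after its value was seen, rose by 0.27 (limma, adjusted p = 0.0344; 0.0128 to 0.280 over 19 alternatives). The Cdc20 call ended without any 1 of the 5 libraries other than Nae1T-KO replicate 3 (0.0650 to 0.107). It also ended with sex as a covariate (limma, adjusted p = 0.0654).

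Of 18 tested regulators of CDKN transcription, 2 were higher, 2 were lower and 14 did not pass, with a median of -0.01. Among all tested genes 6.53% were higher and 6.18% lower. Trp53, which encodes p53, read 3122, 3138 and 3215 in Nae1T-KO against 2680, 2452 and 2526 in Nae1WT as normalized counts. It rose by 0.31 on the log2 scale (limma, adjusted p = 0.0126; 0.00120 to 0.135 over 19 alternatives), a call that ended without Nae1WT replicate 2 (0.0662) or replicate 3 (0.0591). Smad4, a mediator of TGF-beta signals, rose by 0.27 (limma, adjusted p = 0.0484), and leaving out any 1 library ended this call (0.0554 to 0.188). The Smad4 call also ended with sex as a covariate (limma, adjusted p = 0.0807), no filter (limma, adjusted p = 0.0568) and edgeR (adjusted p = 0.0527).

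Of the 7 Polycomb genes in this list, whose products repress the Cdkn2a locus in many cell types, 2 were lower, Bmi1 and Ezh2. Lower calls made up 6.18% of all tested genes. The other 5 did not pass, with log2 fold changes of -0.13 (Suz12), -0.06 (Ring1), -0.04 (Cbx7), -0.01 (Eed) and -0.01 (Rnf2). Bmi1, at 2143 ± 122 against 2775 ± 81.2 in Nae1WT, fell by 0.37 on the log2 scale (limma, adjusted p = 0.00683; 0.112 with the library-number block on 4 libraries). Ezh2, named after its value was seen, fell by 0.24 (limma, adjusted p = 0.0300; 0.00732 to 0.337 over 19 alternatives). Its call ended without Nae1T-KO replicate 2 (0.0784) or Nae1WT replicate 1, 2 or 3 (0.0739, 0.0846 and 0.121). Foxo1, an activator of Cdkn1b, had 0.08 (limma, adjusted p = 0.763), with a negative sign without Nae1T-KO replicate 2 (-0.0440) or Nae1WT replicate 2 (-0.0350). Myc, a repressor of Cdkn1a, had 0.15 (limma, adjusted p = 0.141).

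Other p53 targets were tested beside Cdkn1a. Of 22 listed, 21 were tested, 9 were higher, 1 was lower and 11 did not pass, with a median log2 fold change of 0.28. Over all tested genes 6.53% were called higher and 6.18% lower. This list, like the others, was chosen with earlier results of these data known. Its 10 calls became 7 with a replicate block on title numbers and 2 with the library-number block on 4 libraries. Plk3, a stress-responsive kinase gene, rose by 0.88 (limma, adjusted p = 0.00114), Perp, a membrane protein gene, by 0.82 (limma, adjusted p = 0.00116) and Sesn2, which encodes a sestrin, by 0.77 (limma, adjusted p = 0.00330; 0.0564 with the library-number block on 4 libraries). Mdm2, the p53 ligase gene, rose by 0.28 (limma, adjusted p = 0.0181; 0.00496 to 0.254 over 19 alternatives), and its call ended without Nae1T-KO replicate 2 (0.0596) or Nae1WT replicate 2 (0.0587) or 3 (0.0830). Gadd45a, a growth arrest gene named after its value was seen, was low, at 47.2 ± 14.6 against 12.3 ± 3.36, and rose by 1.85 (limma, adjusted p = 0.00561; 0.000216 to 0.0530 over 18 alternatives). Fas, a death receptor gene named after its value was seen, fell by 0.56 (limma, adjusted p = 0.00252; 0.0931 with the library-number block on 4 libraries). Among the 11 that did not pass were Sesn1 at -0.27 (limma, adjusted p = 0.0992, groups without overlap) and Ccng1 at -0.11 (limma, adjusted p = 0.458). Zmat3 at 0.00 (limma, adjusted p = 0.985) and Bax at 0.18 (limma, adjusted p = 0.329) did not pass either. Of the 21 tested, 18 had a log2 fold change above 0.

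Genes of T cell quiescence, the state in which p27 is high, numbered 11, of which 2 were higher, 1 was lower and 8 did not pass, at a median of 0.23. For all tested genes the shares were 6.53% higher and 6.18% lower. Tob1, an antiproliferative gene, rose by 0.53 on the log2 scale (limma, adjusted p = 0.0142; 0.00514 to 0.214 over 19 alternatives, 0.0585 without Nae1WT replicate 3). Il7r, the IL-7 receptor gene, fell by 0.36 (limma, adjusted p = 0.0476; 0.0248 to 0.275 over 19 alternatives). The Il7r call ended without any 1 library other than Nae1WT replicate 2 (0.0792 to 0.172).

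**Figure D4:**
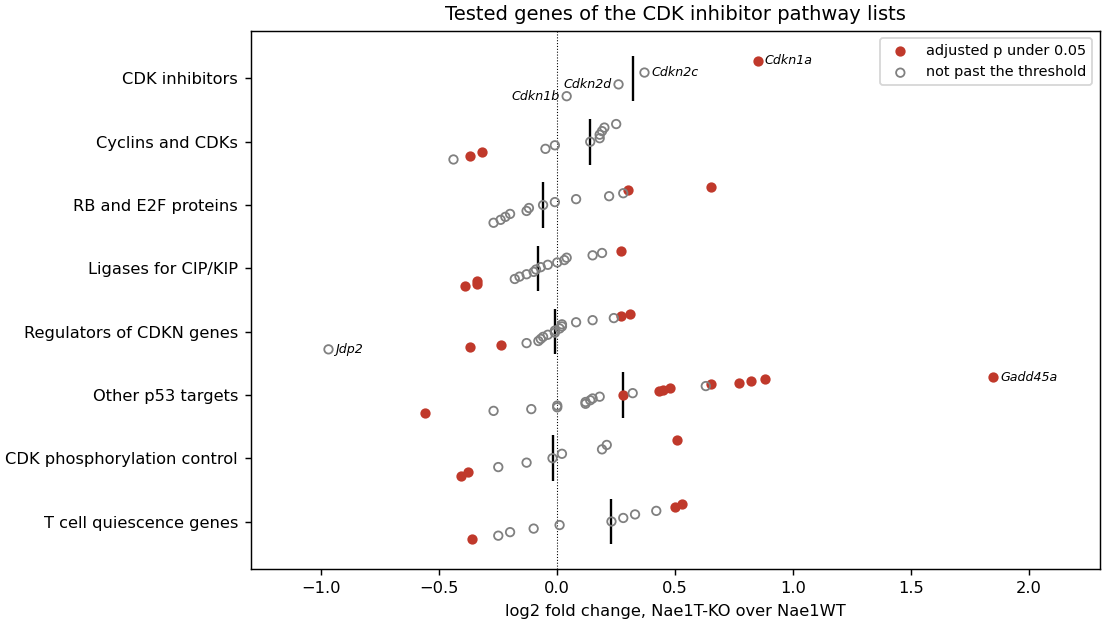
Log2 fold change, Nae1T-KO over Nae1WT, of each tested gene in 8 lists, with a black bar at each list's median and red points for adjusted p under 0.05. The p53 target list has 9 red points above 0 and 1 below, and the other lists hold between 1 and 4 red points each. Over all tested genes 12.7% were called.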

How the data were processed

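Per the submitters' processing notes, bcl2fastq, HISAT2, DESeq2 1.42.0 and mm10 were used. The read counter and its annotation were not given in the sources used here. The values that the authors deposited are a signal, normalized counts that have the form of reads divided by a size factor for each library. Dividing a library by what 1 read is worth gave whole reads (within 0.001 of a read, 100% of values), and that worth matched DESeq2 size factors. In Nae1T-KO replicate 3 it is nearly 1, so recovered reads are less certain there. The smallest sum of a gene was 11 reads.

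From these values limma 3.58.1 in R 4.3.3 was run on log2(normalized count + 1), with a variance trend, robust estimation and group alone, and checked on simulated counts. Fold changes on this scale understate changes of low genes. Alternatives were 3 scalings, no filter, a filter at 100 normalized counts, pseudocounts of 0.5 and 5, each library left out, replicate blocks, sex as a covariate, and, on recovered reads, DESeq2, limma-voom and edgeR 4.0.16. Named were the members, up to 3 called genes per list, taken by size of change above a mean of 100, and genes chosen for their role. Cdc20, Ezh2, Gadd45a and Fas were added after their values were seen. So were the p53 targets given as not passing and the single cell type markers. A called gene of the quiescence list is not reported here. Members and lists were chosen with earlier results of these data known. RefSeq gave the promoters and GENCODE M21 (GRCm38) gene spans and lengths.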

Additional observations from a re-analysis of the deposited data

How the results depend on the processing

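Cdkn1a stayed higher and past the threshold in all 19 alternatives (0.765 to 0.895). The number of members past the threshold, 1, became 2 with scaling to total reads and ranged from 1 to 2 when single libraries were left out, each time by Cdkn2c (0.415 with total reads, 0.477 without Nae1T-KO replicate 2). Cdkn2c was otherwise 0.265 to 0.439 and not past it. Cdkn1b ranged from -0.0387 to 0.115 when single libraries were left out, negative without replicate 2 of Nae1T-KO (-0.0387) or of Nae1WT (-0.0181), and was -0.0154 with the replicate block on 4 libraries. Foxo1 ranged from -0.0440 to 0.226 in those fits, with -0.0440 and -0.0350 without replicate 2 of either group, and was -0.00882 with sex as a covariate. Uba3, the partner of Nae1, ranged from -0.0150 to 0.0933, with 3 negative values (-0.0108, -0.0150 and -0.00587). The cause of these turns was not tested.

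Over all genes 1757 were called, and 844 to 1790 when single libraries were left out, with the lowest counts without Nae1WT replicate 2 (844), Nae1WT replicate 3 (954) and Nae1T-KO replicate 2 (1034). Over the pathway lists 29 genes were called, and 12 to 28 in the same fits, with 15, 16 and 12 without Nae1T-KO replicate 2, Nae1WT replicate 2 and Nae1WT replicate 3. Per list these fits gave 0 to 3 for cyclins and CDKs (2 with all libraries), 1 to 2 for retinoblastoma and E2F genes (2), 1 to 3 for ligases (4), 1 to 4 for regulators (4), 7 to 11 for p53 targets (10), 0 to 4 for CDK phosphorylation (3) and 1 to 4 for quiescence (3). Fewer libraries enter each. On recovered reads edgeR called 1711 genes, DESeq2 2047 and limma-voom 1673.

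With a replicate block on title numbers 968 genes and 14 list genes were called, and by the number in the library names, on 4 libraries, 253 and 2. Same-numbered libraries by title did not deviate together (r of -0.13, -0.18 and -0.27), so the numbers are not taken to pair them. Cdkn1a was called under each block. Depth limits Cdkn1c, Cdkn2a and Cdkn2b, with 1 to 11 reads per library.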
